A study of Homo sapiens with 6 samples.

Results

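The expression of 35 homologous recombination and Fanconi anaemia repair genes was followed in HMV-II, a human melanoma cell line of mucosal origin that the labels assign to vaginal tissue. The genes were chosen by symbol for their role in the pathway, not by a measured value, although earlier results of these data were known at that time. All 35 were among the 30015 genes of the deposited table. All 35 also reached the minimum level used for testing, a mean of 10 normalized counts, and so belonged to the 15251 genes tested. RNA was sequenced from 3 libraries labelled Vector, with the genotype given as WT, and from 3 libraries labelled shEZH2, with the genotype given as EZH2 knockdown. The labels record no treatment in either group. According to the study's methods, both groups were stable lines made with lentivirus and puromycin, the control carrying a scrambled shRNA. The labels do not name which of the study's shRNAs against EZH2 was used, although the deposited table heads the mean of the shEZH2 libraries with sh1. They also do not say whether replicates were separate cultures or infections, so the p-values below measure only the spread between these libraries, which may be technical. EZH2 is the catalytic subunit of a complex that methylates histone H3 and represses transcription.

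Homologous recombination repairs DNA double-strand breaks by copying the sister chromatid, and it is active mainly in S and G2 phase. The break is sensed by the MRE11, RAD50 and NBN complex and signalled by the kinases ATM and ATR, its ends are resected, and BRCA1, PALB2 and BRCA2 prepare the exposed strand for pairing. The RAD51B, RAD51C, RAD51D, XRCC2 and XRCC3 proteins and the RAD54 proteins help that strand invade the sister, and BLM, TOP3A and RMI1 take the joined molecules apart. The Fanconi core complex monoubiquitinates the FANCD2 and FANCI pair at DNA crosslinks. Many of these genes are known for higher transcription in dividing cells, and their loss makes tumours sensitive to PARP inhibitors and crosslinking drugs.

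The promoter sequences of the genes past the threshold used here (an unadjusted p under 0.05 with a fold change of over 1.5) are shown first. The bases shown are only part of the promoter windows searched, so missing capitals do not mean that a motif is missing. The sequences are from RefSeq on GRCh38.p14, 5′ to 3′ on the strand of the gene, and give the 150 bases before an annotated start site. Capitals mark letters of the motifs searched, which were E2F (TTTCCCGC, TTTGGCGC or TTTCGCGC), the cell cycle homology region or CHR (TTTGAA or TTCGAA), NRF1 (GCATGCGC) and CCAAT, on either strand. No motif is part of another. The genes that were higher after EZH2 knockdown are RAD54L (chr1:46247538-46247687, plus strand) and FANCF (chr11:22625824-22625973, minus strand). For EXO1, also higher, the 30 bases around its E2F letters are shown (chr1:241848197-241848226, plus strand); they begin 4 bases after the start site.
RAD54L: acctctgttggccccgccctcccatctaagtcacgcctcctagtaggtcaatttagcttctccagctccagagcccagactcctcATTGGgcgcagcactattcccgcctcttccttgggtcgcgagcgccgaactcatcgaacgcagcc
FANCF: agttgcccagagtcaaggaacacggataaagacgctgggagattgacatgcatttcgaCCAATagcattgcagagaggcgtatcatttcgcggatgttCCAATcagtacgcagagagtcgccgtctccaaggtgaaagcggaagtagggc
EXO1: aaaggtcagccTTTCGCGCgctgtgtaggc
The genes that were lower are RAD50 (chr5:132556827-132556976, plus strand), ATM (chr11:108222917-108223066, plus strand), ATR (chr3:142578734-142578883, minus strand) and BRCA1 (chr17:43125365-43125514, minus strand).
RAD50: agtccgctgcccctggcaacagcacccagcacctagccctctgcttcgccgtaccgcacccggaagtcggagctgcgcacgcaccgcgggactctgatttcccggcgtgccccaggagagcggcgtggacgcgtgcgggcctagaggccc
ATM: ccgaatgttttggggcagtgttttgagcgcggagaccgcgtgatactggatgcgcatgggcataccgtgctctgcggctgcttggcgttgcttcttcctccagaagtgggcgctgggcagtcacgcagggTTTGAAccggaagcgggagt
ATR: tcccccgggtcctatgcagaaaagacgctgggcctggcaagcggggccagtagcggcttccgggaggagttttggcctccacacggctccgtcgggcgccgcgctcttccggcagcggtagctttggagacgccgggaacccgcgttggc
BRCA1: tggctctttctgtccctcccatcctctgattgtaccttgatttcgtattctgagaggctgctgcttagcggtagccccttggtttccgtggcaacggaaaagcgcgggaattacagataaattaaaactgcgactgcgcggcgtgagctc

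Of the 35 genes, 32 had a promoter in the RefSeq table, each window running from 250 bases before to 50 after the start. NBN, RAD54B and FANCI had none. E2F letters stood in 4 of them (EXO1, XRCC2, FANCC and FANCD2), against 3.30% of the promoters of 27305 genes. CHR letters stood in 3 (ATM, BRIP1 and FANCC), against 19.5% of all promoters. CCAAT stood in 15, against 39.7%, and the NRF1 letters in 2 (RBBP8 and XRCC2), against 3.68%. Among the genes printed above, CCAAT stood in the windows of RAD54L and FANCF, which were higher, and of ATM and BRCA1, which were lower. For ATM and BRCA1 it lay outside the bases shown. In a list of S phase markers the E2F letters stood in 8 of 14 promoters, and in a list of G2 and M phase markers the CHR letters stood in 10 of 13. A match describes the letters in this window and is not a binding site.

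Each Vector library held 13400290 to 15923029 reads and each shEZH2 library 16129171 to 19128939. Among the repair genes a single library held between 47 reads, on RAD50, and 3186, on ATM. The targeted gene EZH2 was at 483, 437 and 552 normalized counts in the Vector libraries and at 237, 247 and 225 in the shEZH2 libraries, a log2 fold change of -1.04 ± 0.14 (SE; limma, adjusted p = 0.0142). Its adjusted p was 8.41e-05 without Vector replicate 2 and ran from 0.0549 to 0.129, above 0.05, in the fits without each of the 5 remaining libraries. The exact two-sided permutation p was 0.1, the smallest that 3 against 3 libraries allow. Melanocyte lineage markers summed to between 78071 and 84314 normalized counts in shEZH2 libraries and between 75569 and 100104 in Vector libraries, with all 8 detected. The leukocyte marker CD3E, the endothelial marker CDH5 and the epithelial marker KRT5 were absent from the table, and COL1A1, COL3A1, DCN and PDGFRA of the fibroblast list were each at a mean under 10 normalized counts. A mean of 10 was reached by 2 of 6 fibroblast markers (COL1A2 and LUM), 3 of 6 epithelial, 1 of 4 endothelial and 0 of 4 leukocyte markers.

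Vector replicate 2 stood apart from the other Vector libraries, and did so by gene length. It was the highest Vector library for 21 of the 35 repair genes and the lowest for 8. Among the 17 genes over the median length of 6476 bases it was the highest Vector library for 13, and among the 18 shorter genes for 8. Its median log2 level over the mean of the other Vector libraries was 0.42 for the longer repair genes and 0.060 for the shorter ones, beside 0.33 and -0.21 over all genes tested in the same length ranges. The counts of the 35 genes past the threshold and past adjustment are therefore also given without this library. So are the fold changes of the members whose value in every library is given. The counts of groups that do not overlap, and the values of most other members in the text, are with all libraries only. The plot of single libraries marks Vector replicate 2 with its own symbol, and the plot of fold changes gives both estimates for every gene.

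**Figure D1:**
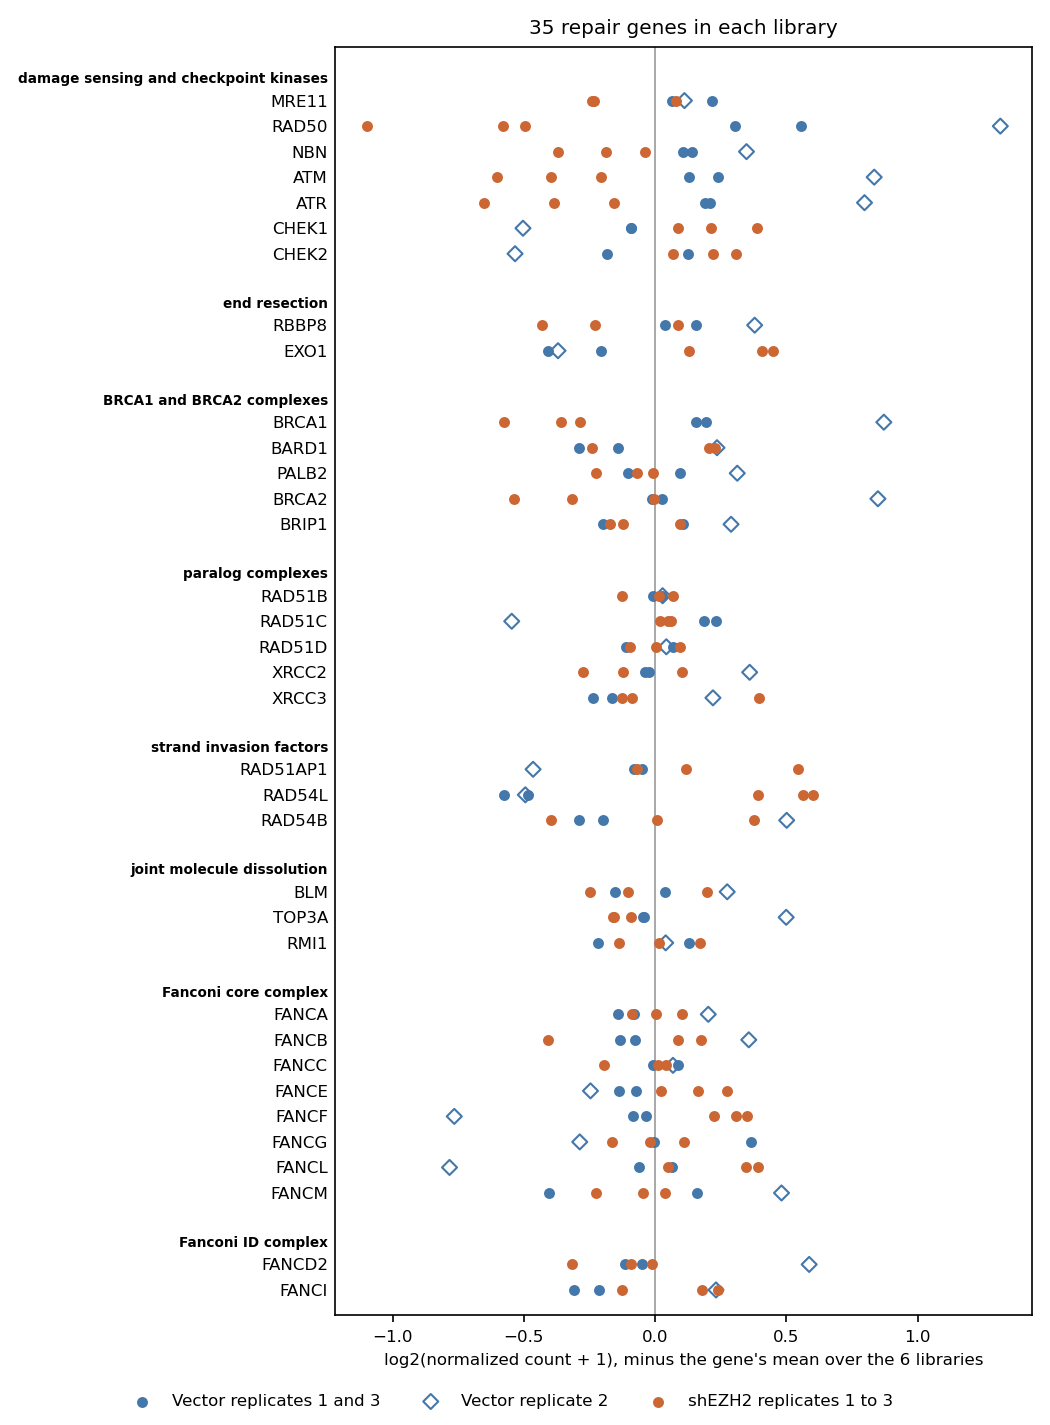
Level of each of the 35 repair genes in each library as log2(normalized count + 1) minus the gene's mean over the 6 libraries (x axis, log2 units), with genes in rows by role. Filled blue points are Vector replicates 1 and 3, open diamonds Vector replicate 2 and orange points the 3 shEZH2 libraries; the diamond lies outside the other Vector points for most genes, to the right for RAD50, ATM, ATR, BRCA1, BRCA2 and FANCD2 and to the left for FANCF and FANCL.

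After EZH2 knockdown the repair genes that changed did so in both directions. RAD54L, EXO1 and FANCF were higher past the threshold and RAD50, ATM, ATR and BRCA1 were lower, while the other 28 did not pass it. The 3 higher genes were 8.57% of the 35, beside 7.55% of all genes tested, and the 4 lower genes were 11.4%, beside 7.07%. After Benjamini-Hochberg adjustment over the 15251 genes, RAD54L was higher (limma, adjusted p = 0.0132) and RAD50 lower (adjusted p = 0.0441), 1 gene in each direction, beside 2.28% and 1.84% of all genes. The median log2 fold change of the 35 was -0.049, and that of all genes tested was 0.039.

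Without Vector replicate 2, RAD54L and EXO1 were higher past the threshold and RAD50, ATM and ATR lower, beside 7.15% and 5.61% of the 15123 genes then tested. FANCF dropped out at a log2 fold change of 0.35. BRCA1, at 1.498-fold lower, fell just short of the 1.5-fold limit that ATM, at 1.501-fold lower, just passed. The adjusted p-values became smaller without that library: RAD54L, EXO1 and FANCF were then higher after adjustment and RAD50, ATM, ATR and BRCA1 lower, beside 9.92% and 9.18% of all genes. The median log2 fold change of the 35 was 0.0058 without it. Both medians lay near 0. All 7 genes past the threshold with all libraries were past adjustment without that one, but the fits share all the other libraries. How many of all genes called with all libraries did the same was not counted, so this is not separate support for these 7. The mean chi-square of reads per gene was 2.14 between Vector replicates 1 and 3, and 117 to 119 between each of them and replicate 2. Between shEZH2 libraries it was 6.49 to 23.9. The smaller adjusted p-values without Vector replicate 2 thus rest on closely similar Vector libraries, and are not firmer calls on that account. With 1 of the other libraries left out, RAD54L passed adjustment without Vector replicate 1, as did 182 of 15273 genes tested. In each of the remaining fits 0 members did, beside 4 to 141 of all genes, and EZH2 itself did not pass either. In those fits 2 to 3 members were higher and 4 to 5 lower past the threshold, beside 5.52% to 9.44% and 5.07% to 8.25% of all genes.

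By single libraries, every shEZH2 library was above every Vector library for 5 repair genes (RAD54L, EXO1, FANCF, CHEK1 and FANCE) and below every Vector library for 6 (RAD50, NBN, ATM, ATR, BRCA1 and TOP3A), that is 14.3% and 17.1% of the 35. Over all genes tested these shares were 18.4% and 16.5%. The groups overlapped for the other 24 repair genes.

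**Figure D2:**
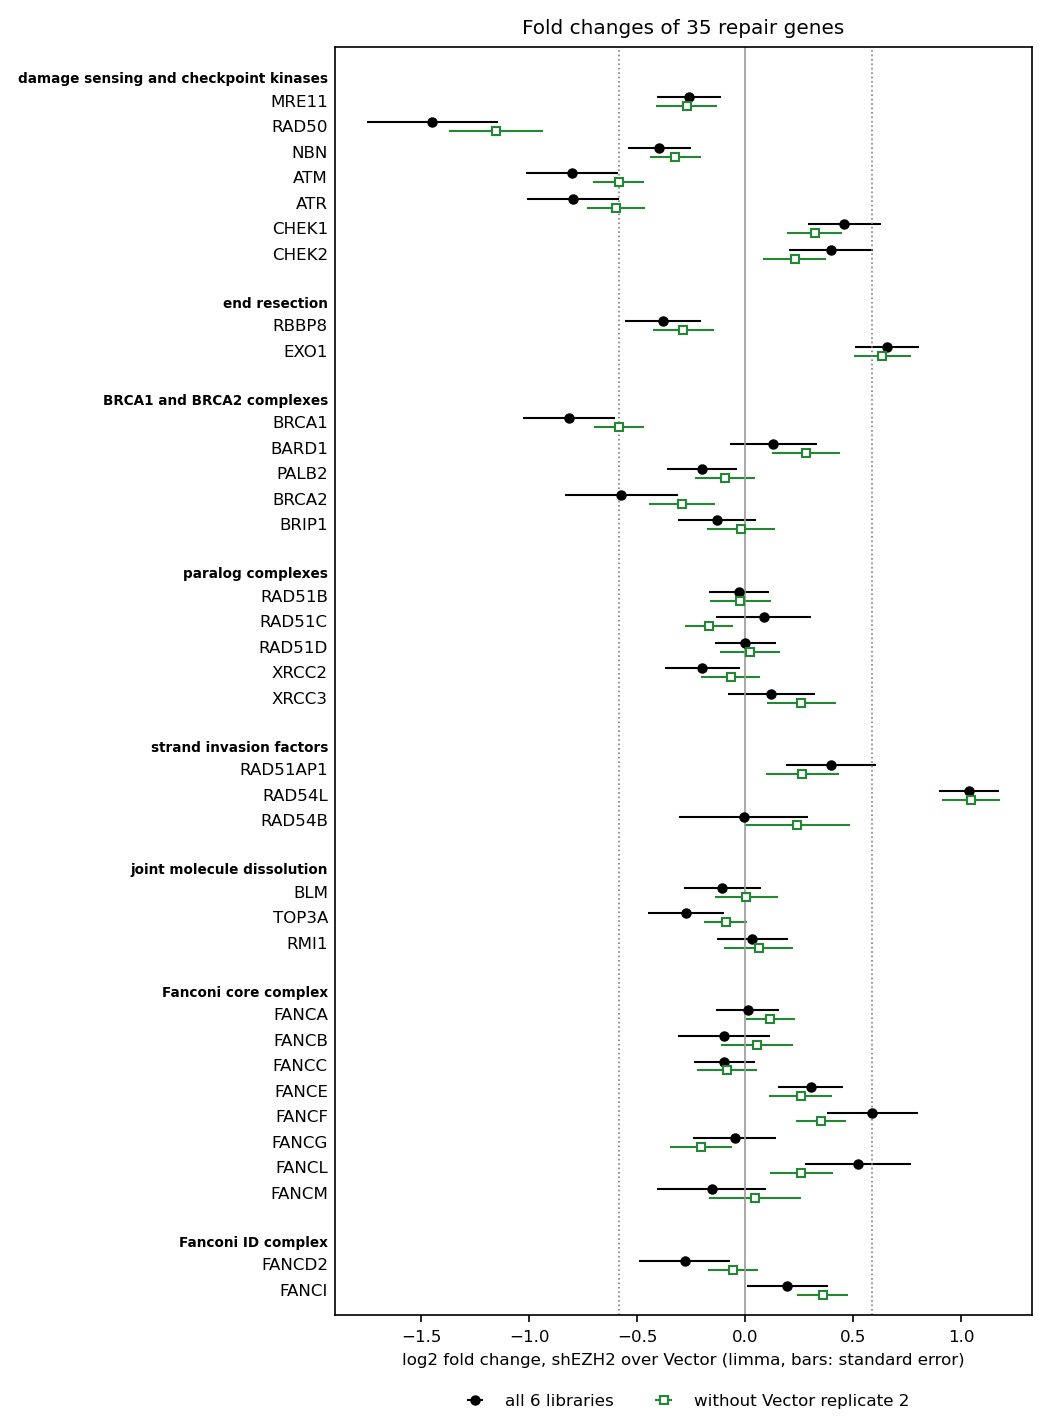
Log2 fold change of shEZH2 over Vector for each of the 35 repair genes (x axis, limma estimate with its standard error as the bar), with all 6 libraries (black points) and without Vector replicate 2 (green squares); dotted lines mark a 1.5-fold change. RAD54L lies at 1.03 and 1.05 in these fits and RAD50 at -1.45 and -1.15, while most of the other genes lie inside the lines.

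Among the 7 genes of damage sensing and checkpoint signalling, RAD50, ATM and ATR were lower and none was higher past the threshold. Over all genes tested 7.07% were lower and 7.55% higher, or 5.61% and 7.15% without Vector replicate 2. These shares also stand beside the calls of the other roles below. The median log2 fold change of the 7 was -0.40 (-0.32 without Vector replicate 2). Their median length was 7689 bases, and all genes tested over 6476 bases had a median log2 fold change of -0.14. RAD50 (ENSG00000113522, chromosome 5 from 132556019 to 132646344), the long coiled-coil ATPase that bridges broken ends, was at 143, 243 and 120.1 normalized counts (Vector replicates 1, 2 and 3) against 64.7, 68.7 and 44.9 (shEZH2 replicates 1, 2 and 3). Every shEZH2 library was below the lowest Vector library, and Vector replicate 2 was the highest of all. Its mean fell from 169 ± 65.5 to 59.4 ± 12.8 (SD, n = 3 each), a log2 fold change of -1.45 ± 0.30 (SE; limma, adjusted p = 0.0441). Without Vector replicate 2 it was -1.15 ± 0.22 (adjusted p = 0.00299), still 2.22-fold lower. RAD50 was thus the repair gene with the largest fall in either fit, on 47 to 209 reads per library. Over the alternatives its adjusted p ranged from 6.33e-04 to 0.206, and it stayed past the 1.5-fold threshold in all of them.

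The partners of RAD50 in the same complex did not pass the threshold. MRE11, the nuclease, was at 296 to 371 normalized counts in shEZH2 and 367 to 407 in Vector libraries, with a log2 fold change of -0.26 ± 0.15. NBN, which brings ATM to the complex, was at 701 to 883 against 976 to 1154, a log2 fold change of -0.40 ± 0.15 with groups that did not overlap and a fold under the threshold. Neither passed it under any of the 17 alternatives either.

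ATM (ENSG00000149311, chromosome 11 from 108222484 to 108369102), the kinase activated at double-strand breaks, was at 2275, 3709 and 2456 normalized counts (Vector replicates 1, 2 and 3) against 1370.2, 1802 and 1581 (shEZH2 replicates 1, 2 and 3). Each shEZH2 value lay below each Vector value, and Vector replicate 2 lay far above the other Vector libraries. The log2 fold change was -0.80 ± 0.21 (SE; limma, adjusted p = 0.0822), and -0.59 ± 0.12 (adjusted p = 0.00459) without Vector replicate 2. ATR (ENSG00000175054, chromosome 3 from 142449235 to 142578826), the kinase of single-stranded DNA at stalled forks, was at 1415, 2128 and 1397 normalized counts (Vector replicates 1, 2 and 3) against 779, 1097 and 936 (shEZH2 replicates 1, 2 and 3). Again no shEZH2 value reached a Vector value, and Vector replicate 2 was the highest. Its log2 fold change was -0.80 ± 0.21 (SE; limma, adjusted p = 0.0821), and -0.60 ± 0.13 (adjusted p = 0.00786) without Vector replicate 2. Over the alternatives the adjusted p ranged from 0.00186 to 0.280 for ATM and from 0.00202 to 0.279 for ATR.

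The effector kinases downstream had fold changes of the other sign. CHEK1, which acts after ATR, was at 370.2, 278 and 371 normalized counts (Vector replicates 1, 2 and 3) against 458, 517 and 419 (shEZH2 replicates 1, 2 and 3). All 3 shEZH2 libraries were above all 3 Vector libraries, but the log2 fold change of 0.46 ± 0.17 (SE; limma, adjusted p = 0.166) was under the threshold, as was 0.32 without Vector replicate 2. CHEK2, which acts after ATM, ran from 251 to 297 in shEZH2 and from 165 to 261 in Vector libraries, so that its groups overlapped, with a log2 fold change of 0.40 ± 0.20.

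**Figure D3:**
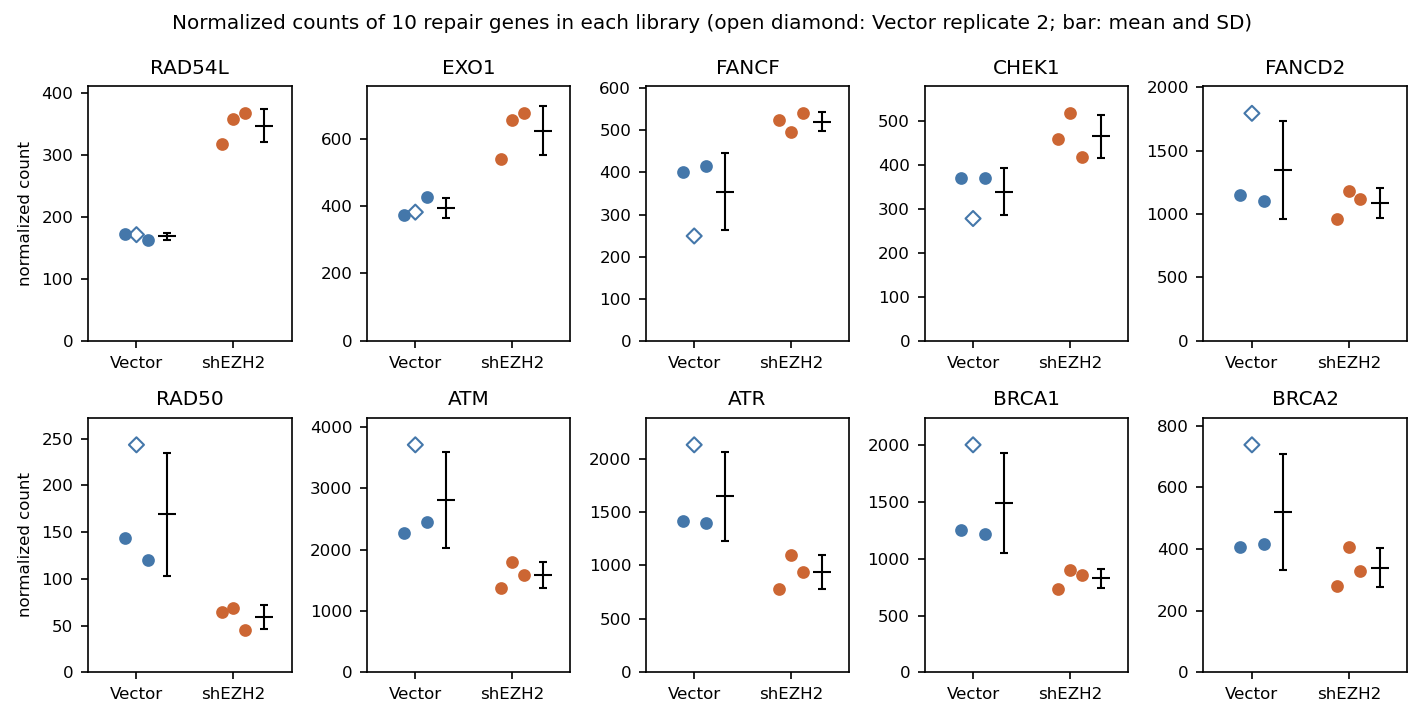
Normalized counts (y axis, from 0) of 10 repair genes in each library, with Vector in blue (replicate 2 as an open diamond), shEZH2 in orange and the mean with its SD as a black bar for n = 3. RAD54L and EXO1 lie higher in all 3 shEZH2 libraries with the diamond among the other Vector points, whereas for RAD50, ATM, ATR and BRCA1 the shEZH2 points lie below Vector replicates 1 and 3 and the diamond lies above them.

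In end resection, EXO1 was higher and RBBP8 did not pass the threshold. EXO1 (ENSG00000174371, chromosome 1 from 241847967 to 241895148), the exonuclease of long-range resection, was at 372, 382 and 428 normalized counts (Vector replicates 1, 2 and 3) against 539.9, 655 and 675 (shEZH2 replicates 1, 2 and 3). The groups did not overlap, and Vector replicate 2 lay between the other Vector libraries, so leaving it out moved the value little. The log2 fold change was 0.66 ± 0.15 (SE; limma, adjusted p = 0.0535), and 0.64 ± 0.13 (adjusted p = 0.00518) without that library. Its adjusted p ranged from 0.00272 to 0.266 over the alternatives. RBBP8, also called CtIP, which starts resection with MRE11, ran from 558 to 799 in shEZH2 and from 772 to 978 in Vector libraries, with a log2 fold change of -0.38 ± 0.18.

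Of the 5 genes of the BRCA1 and BRCA2 complexes, BRCA1 was lower, beside 7.07% of all genes, and the other 4 did not pass the threshold. BRCA1 (ENSG00000012048, chromosome 17 from 43044295 to 43170245), a ubiquitin ligase that favours recombination over end joining, was at 1255, 2006 and 1222 normalized counts (Vector replicates 1, 2 and 3) against 735, 898 and 854 (shEZH2 replicates 1, 2 and 3). No shEZH2 library reached the lowest Vector value, and Vector replicate 2 was 2006 beside 1255 and 1222 in the other Vector libraries. The log2 fold change was -0.81 ± 0.21 (SE; limma, adjusted p = 0.0800), and -0.58 ± 0.11 (adjusted p = 0.00372) without Vector replicate 2, with adjusted p-values from 0.00118 to 0.271 over the alternatives. BRCA2, which works downstream of PALB2 in strand pairing, was at 406, 738 and 416 normalized counts (Vector replicates 1, 2 and 3) against 282, 408 and 328 (shEZH2 replicates 1, 2 and 3). The groups overlapped, and its log2 fold change of -0.57 ± 0.26 (SE; limma, adjusted p = 0.241) became -0.29 without Vector replicate 2. DESeq2 on the recovered reads put BRCA2 past the threshold, with an adjusted p of 0.18, as did leaving out Vector replicate 1 or 3. BARD1, the obligate partner of BRCA1, PALB2, which links BRCA1 to BRCA2, and the helicase BRIP1 had log2 fold changes of 0.13 ± 0.20, -0.20 ± 0.16 and -0.13 ± 0.18, each with overlapping groups.

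The 5 genes of the paralog complexes, whose proteins assist strand pairing, gave 0 calls in either direction. Over all genes tested 7.55% were higher and 7.07% lower, so 0 of 5 genes is near that share. At an unadjusted p under 0.05, limma, DESeq2 and edgeR each gave 0 as well. RAD51B, RAD51C, RAD51D, XRCC2 and XRCC3 had log2 fold changes between -0.20 (XRCC2) and 0.12 (XRCC3), with standard errors of 0.14 to 0.22 and overlapping groups for all 5. RAD51D was the flattest, at 216 to 245 normalized counts in Vector and 219 to 250.1 in shEZH2 libraries. RAD51C was low in Vector replicate 2 (331) beside 568 and 549.8 in the other Vector libraries, and its log2 fold change went from 0.086 to -0.17 without it.

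RAD54L rose in the group of strand invasion factors. RAD54L (ENSG00000085999, chromosome 1 from 46247688 to 46278473), the motor protein that works on chromatin during strand invasion, was at 173, 171 and 162 normalized counts (Vector replicates 1, 2 and 3) against 317, 357 and 367 (shEZH2 replicates 1, 2 and 3). The Vector libraries lay close together, at a mean of 169 ± 5.79 (SD, n = 3) with replicate 2 included, and every shEZH2 value was above them. The mean in shEZH2 was 347 ± 26.3 (SD, n = 3), 2.05-fold higher, with a log2 fold change of 1.03 ± 0.14 (SE; limma, adjusted p = 0.0132) and of 1.05 ± 0.13 (adjusted p = 2.01e-04) without Vector replicate 2. Over the alternatives its adjusted p ranged from 7.86e-07 to 0.127. RAD54B, the related motor protein, was lower in level, at 53.3 to 93.1 in Vector and 49.5 to 85.4 in shEZH2 libraries, with a log2 fold change of -0.0077 ± 0.30. RAD51AP1, which stimulates joint molecule formation, had a log2 fold change of 0.40 ± 0.21 with overlapping groups.

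In the dissolution group, the helicase BLM, the topoisomerase TOP3A and their scaffold RMI1 did not pass the threshold, with log2 fold changes of -0.11 ± 0.18, -0.27 ± 0.18 and 0.034 ± 0.17. For TOP3A a single Vector library stood high. It was at 1415, 2059.6 and 1409 normalized counts (Vector replicates 1, 2 and 3) against 1307, 1304 and 1366 (shEZH2 replicates 1, 2 and 3), so that the shEZH2 libraries were below all Vector libraries, but by little except against replicate 2. Without that library its log2 fold change was -0.091.

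Of the 8 genes of the Fanconi core complex, FANCF was higher past the threshold, beside 7.55% of all genes, and the other 7 did not pass it. FANCF (ENSG00000183161, chromosome 11 from 22622890 to 22625841), an adaptor that holds subunits of the complex together, was at 401, 249 and 414 normalized counts (Vector replicates 1, 2 and 3) against 526, 496 and 540.4 (shEZH2 replicates 1, 2 and 3). All shEZH2 libraries were above all Vector libraries, and Vector replicate 2 was the lowest. The log2 fold change of 0.59 ± 0.21 (SE; limma, adjusted p = 0.159) went to 0.35 ± 0.12 (adjusted p = 0.0492) without that library, which ended the call at the threshold, and its adjusted p ranged from 0.0492 to 0.395 over the alternatives. FANCL, the ubiquitin ligase subunit, had the next highest log2 fold change, 0.52 ± 0.24, which was 0.26 without Vector replicate 2 (its value there was 128, beside 231 and 212), and it passed the threshold under 1 of 17 alternatives. FANCE, which contacts FANCD2, was higher in every shEZH2 library (179.7 to 214) than in every Vector library (149 to 168), a log2 fold change of 0.30 ± 0.15 under the threshold. FANCA, FANCB, FANCC, FANCG and the translocase FANCM lay between -0.16 (FANCM) and 0.013 (FANCA), with overlapping groups.

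The target pair of the core complex did not pass the threshold. FANCD2, like CHEK2 and BRCA1, has partial pseudogene copies in the genome, between which counting could split reads. FANCD2 was at 1153, 1794 and 1103 normalized counts (Vector replicates 1, 2 and 3) against 959.8, 1184 and 1119 (shEZH2 replicates 1, 2 and 3). Apart from Vector replicate 2 the 5 libraries lay close together, and the log2 fold change was -0.28 ± 0.21 (SE; limma, adjusted p = 0.443), or -0.058 without that library. FANCI was at 1768, 2410.0 and 1657 normalized counts (Vector replicates 1, 2 and 3) against 1882, 2425 and 2320.0 (shEZH2 replicates 1, 2 and 3), with a log2 fold change of 0.19 ± 0.19, or 0.36 ± 0.12 (adjusted p = 0.0503) without that library.

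Because proteins of 1 complex act together, the levels of partner transcripts were also compared within each library, as log2 ratios of reads scaled to gene length. These 3 pairs were chosen after the values were seen and carry no test. The ratio of RAD50 to MRE11 averaged -1.60 ± 0.53 in Vector and -2.80 ± 0.27 in shEZH2 libraries (SD, n = 3). The ratio of BRCA1 to BARD1 averaged 1.66 ± 0.17 and 0.71 ± 0.13. The ratio of FANCD2 to FANCI averaged -0.65 ± 0.10 and -1.13 ± 0.042. Each ratio was lower in all 3 shEZH2 than in all 3 Vector libraries, and the differences without Vector replicate 2 were -0.89, -0.87 and -0.42. Because the pairs were chosen by their values, this count of pairs is no support. The share of other gene pairs that differ in this way was not counted, and the first gene of each pair is the longer one.

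Levels between genes were compared per length as RPKM, the recovered reads scaled to the gene length in the table and to the total of the library. In Vector libraries the highest repair genes were TOP3A (15.7 ± 4.05, SD, n = 3), FANCI (15.6 ± 3.69), NBN (10.6 ± 1.25), RBBP8 (10.6 ± 1.55) and BRCA1 (10.2 ± 3.31). The lowest were FANCM (0.683 ± 0.220), RAD54B (0.799 ± 0.282) and RAD50 (1.08 ± 0.45). Of the 34 pairs of neighbours in this order, 3 did not overlap between the Vector libraries, namely FANCI above NBN, BRCA2 above BRIP1 and RAD51B above RAD51D, so most single steps in the order were within the spread. Under EZH2 knockdown RAD54L moved from rank 22 to rank 10, at 6.99 ± 0.483, and EXO1 from rank 11 to 4, at 9.74 ± 1.08. BRCA1 moved from rank 5 to 12, ATM from 9 to 21 and RAD50 to the last place, at 0.394 ± 0.0900.

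Gene length moved with these results. The 18 repair genes of up to 6476 bases had a median log2 fold change of 0.060 and 10 of them were above 0, while the 17 longer ones had a median of -0.13 and 5 above 0. Over all genes tested the medians in these length ranges were 0.13 and -0.14. Without Vector replicate 2 the medians of the repair genes were 0.15 and -0.023, and those of all genes 0.017 and -0.046. Across the 35 genes, which share the libraries and are not independent, Spearman's rho of log2 fold change with log2 length was -0.62, and -0.54 without Vector replicate 2. Across all genes tested it was -0.27 and -0.066.

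When a length trend was removed from each library, the log2 fold changes were 0.87 (adjusted p = 0.0199) for RAD54L, -1.28 (adjusted p = 0.0234) for RAD50 and -0.67 (adjusted p = 0.0289) for BRCA1 by limma, all past the threshold. Those of EXO1, ATM and ATR were 0.56 (adjusted p = 0.0447), -0.44 (adjusted p = 0.0447) and -0.57 (adjusted p = 0.0281), no longer past the 1.5-fold limit but past adjustment. FANCF was at 0.40 (adjusted p = 0.0988). With the trend removed and Vector replicate 2 left out as well, an alternative chosen after the data were seen, RAD54L, EXO1 and RAD50 were past the threshold and BRCA1 was not.

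**Figure D4:**
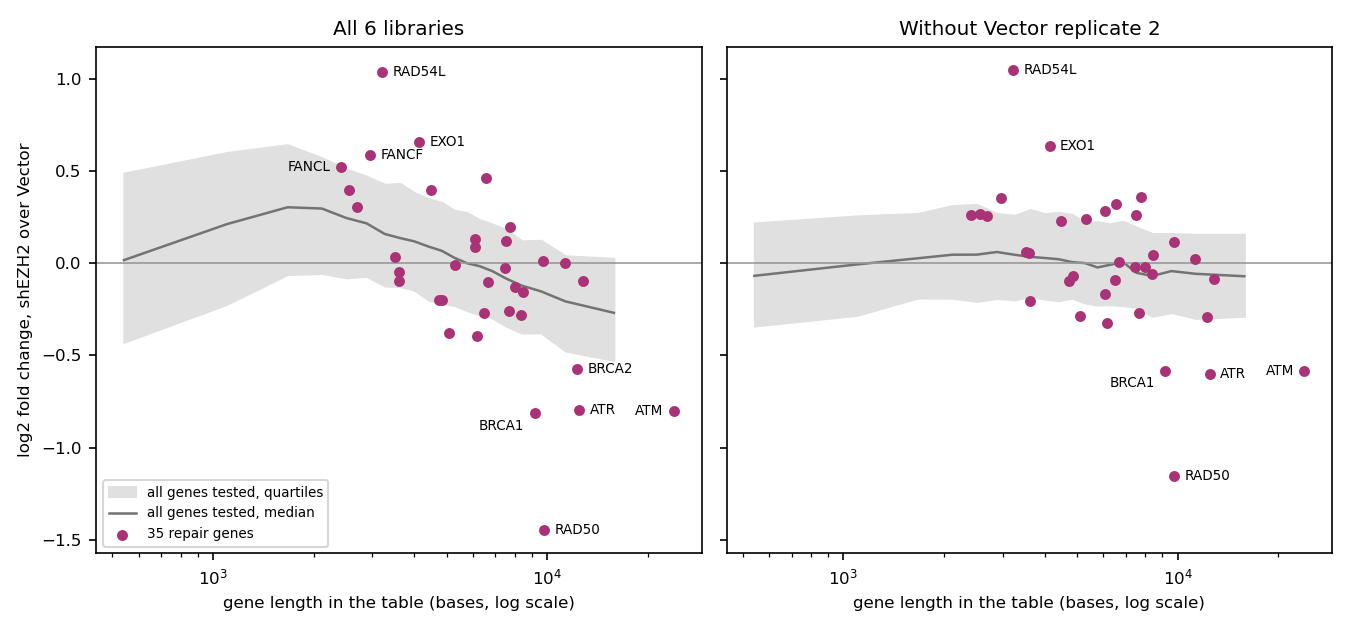
Log2 fold change of shEZH2 over Vector (y axis) against gene length in bases (x axis, log scale), with all 6 libraries on the left and without Vector replicate 2 on the right. Purple points are the 35 repair genes, and the grey line and band are the median and quartiles of all genes tested in 20 length bins. The line slopes down on the left and is nearly flat on the right. RAD54L, EXO1, RAD50, ATR and BRCA1 lie outside the band in both panels, as do genes that did not pass the threshold, such as CHEK1 and NBN.

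Other genes of the pathway, taken from lists of roles, also moved in both directions. Of 60 tested of 61, 2 were higher and 6 lower past the threshold, with a median log2 fold change of -0.019 (limma). These are 3.33% and 10%, beside the 7.55% and 7.07% of all genes. Without Vector replicate 2 there were 2 higher (UHRF1 and TONSL) and 2 lower (RIF1 and SMC6), beside 7.15% and 5.61% of all genes. Among 21 other recombination genes, PSMC3IP, an accessory factor of strand exchange, was higher (0.70 ± 0.24) and the helicase MCM9 lower (-0.60 ± 0.23), at 0.43 and -0.39 without Vector replicate 2. TONSL, which acts at stalled forks, was at 0.51 ± 0.20 with all libraries and at 0.66 ± 0.15 (adjusted p = 0.00938) without that one. Among 8 nucleases and resolvases, ERCC4, also called XPF or FANCQ, was lower (-0.66 ± 0.21), at -0.47 without Vector replicate 2. Among 10 other Fanconi genes, UHRF1, a sensor of crosslinks and of hemimethylated DNA, was higher (0.76 ± 0.18), and at 0.90 without that library. UBE2T, the conjugating enzyme for FANCD2, was at 420.4, 109 and 426 normalized counts in the Vector libraries and 585, 543 and 566 in the shEZH2 libraries, and its log2 fold change of 1.06 ± 0.49, 0.42 without the low Vector replicate 2, did not pass the threshold.

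The 21 damage signalling adaptors held 4 genes that were lower and 0 that were higher past the threshold, beside the percent of all genes given above. RIF1, which limits resection and times replication, was at 2146, 3656 and 2024 normalized counts in the Vector libraries and 1056, 1346 and 1292 in the shEZH2 libraries. It was lower in every shEZH2 library, with a log2 fold change of -1.04 ± 0.24 (SE; limma, adjusted p = 0.0596) and of -0.77 ± 0.12 (adjusted p = 7.62e-04) without Vector replicate 2. SMC5 and SMC6, which form a cohesin-like complex, were lower as well, with log2 fold changes of -0.65 ± 0.16 (SE; limma, adjusted p = 0.0758) and -0.73 ± 0.15 (SE; limma, adjusted p = 0.0383). Without Vector replicate 2 they were -0.53, under the 1.5-fold limit, and -0.63. MDC1, the scaffold that binds phosphorylated H2AX, was lower at -0.62 ± 0.21, which was -0.40 and under that limit without Vector replicate 2. TP53BP1, which works with RIF1 against resection, had a log2 fold change of 0.044 ± 0.22 and did not pass.

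Cell cycle genes moved beside the repair genes. Of 17 S phase markers, 10 were higher and 0 lower past the threshold, beside 7.55% and 7.07% of all genes tested. All 17 had a log2 fold change above 0, as did 8157 of the 15251 genes tested. The median of the markers was 0.69. Without Vector replicate 2 it was 0.57, with 8 higher past the threshold, beside 7.15% of all genes. MCM6, a subunit of the replicative helicase, was at 533, 459.9 and 576 normalized counts in the Vector libraries and 1567, 1711 and 1694 in the shEZH2 libraries, a log2 fold change of 1.67 ± 0.14 (SE; limma, adjusted p = 0.00317). RRM2, of ribonucleotide reductase, rose by 1.24, MCM3 by 0.82, MCM5 by 0.69, the chromatin assembly subunit CHAF1B by 0.75 and CDC45, a cofactor of that helicase, by 0.69 (0.57 and under the 1.5-fold limit without Vector replicate 2). Of 16 G2 and M phase markers, 4 were lower (the kinesin CENPE at -1.96 ± 0.25, CENPF at -1.39 ± 0.24, KIF20B at -0.98 ± 0.19 and MKI67 at -1.002 ± 0.38) and 0 were higher, around a median of 0.044. Without Vector replicate 2, CENPE, CENPF and KIF20B were lower, 3 genes in all, beside 5.61% of all genes. MKI67 was then at -0.53, under the 1.5-fold limit. In bulk RNA, fewer cells in a phase and less RNA per cell cannot be told apart. The part of cell cycle phase in the repair genes' values was not tested.

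In non-homologous end joining, the competing pathway, 0 of 9 genes tested were higher and 0 lower past the threshold by limma. Over all genes these shares were 7.55% and 7.07%. At an unadjusted p under 0.05 limma gave 1, XRCC6, at 0.37 ± 0.16, and edgeR gave 0. DESeq2 put 2 past the threshold, PRKDC and the nuclease DCLRE1C, both lower, beside 8.66% of all genes. PRKDC, the catalytic subunit of the DNA-dependent protein kinase and a very long gene, was at 14706, 35713 and 14864 normalized counts in the Vector libraries and 9825, 14074 and 14362 in the shEZH2 libraries. Its log2 fold change was -0.66 ± 0.36, and -0.23 without Vector replicate 2. XRCC4, the partner of DNA ligase IV, passed the threshold without that library, at -0.64 ± 0.16 (adjusted p = 0.0130).

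Several repair genes share a start region with a neighbour on the other strand, and the counting was not stated to use strand, so reads of overlapping genes cannot be told apart. Of the 35, 13 had a tested neighbour that began on the opposite strand within 1000 bases, and in 10 of these pairs both log2 fold changes had the same sign. The share of such pairs over all genes was not counted, and in several pairs a value lay within its standard error of 0. The BRCA1 neighbour in this count was NBR1, at -0.25 ± 0.13. NPAT, an activator of histone gene transcription that shares its start region with ATM, was at 488, 690.4 and 447 normalized counts in the Vector libraries and 249, 328 and 286 in the shEZH2 libraries. It was lower in every shEZH2 library, as ATM was, with a log2 fold change of -0.89 ± 0.20 (limma, adjusted p = 0.0552) and -0.71 without Vector replicate 2. NBR2, a noncoding RNA that overlaps BRCA1 in the table, was at 280.2, 357 and 274 normalized counts in the Vector libraries and 185, 139 and 149 in the shEZH2 libraries, a log2 fold change of -0.94 ± 0.18 (adjusted p = 0.0346). LRRC41, which overlaps RAD54L on the other strand, had a log2 fold change of -0.020 ± 0.12, and GAS2, which begins next to FANCF, one of -0.60 ± 0.37. For these RAD54L and FANCF neighbours the direction of the repair gene was not shared.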

How the data were processed

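RNA from 3 Vector and 3 shEZH2 libraries of HMV-II cells was analysed by the authors with featureCounts (v1.5.0-p3, counts per gene) and DESeq2 (1.20.0), per the labels. The deposited table holds signal values, which the authors made by dividing the counts of each library by 1 size factor. Dividing by the value of 1 read gave whole numbers, up to rounding, for 100% of the values in every library, and these recovered reads were used where a count test was run. All 6 columns of single libraries were used. Its columns of the authors' fold changes and p-values were not used. The processing notes name hg19, but 75.0% of 20630 genes compared had both ends within 1000 bases of GRCh38 annotation and 3.85% of GRCh37, so coordinates are given as GRCh38.

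Because the table holds normalized values, log2(normalized count + 1) was compared with limma 3.58.1 (empirical Bayes with a mean-variance trend, no replicate block) over genes with a mean of at least 10, and p-values were adjusted by Benjamini-Hochberg over all 15251. The threshold, an unadjusted p under 0.05 with a fold change of over 1.5, is that of the study. Alternatives included count tests on the recovered reads (edgeR 4.0.16, DESeq2 1.42.0), other scalings, pseudocounts and minimums, a replicate block, a length trend removed by loess, and each library left out. The fits were tested on simulated data with known changes. Values in every library are given for members past either call rule, for those whose call changes without Vector replicate 2 or with the length trend removed, and for BRCA1, BRCA2, FANCD2, ATM and CHEK1; other members are given by range, with values of single libraries where 1 library set the result, and at most 6 called genes are named in each other list. UBE2T, TONSL, XRCC4, XRCC6, PRKDC, DCLRE1C, TP53BP1 and the neighbouring genes were named after their values were seen. The members and lists were chosen with earlier results of these data known. No list was tested as a set, and some listed genes are not reported here. Scripts ran in R 4.3.3 and Python.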

Additional observations from a re-analysis of the deposited data

How the results depend on the processing

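With limma, the members past the threshold numbered 3 higher and 4 lower, and the members past adjustment 1 and 1. DESeq2 gave 2 and 4 past adjustment (RAD54L and EXO1, and RAD50, ATM, ATR and BRCA1), beside 5.05% and 5.73% of all genes. A minimum mean of 50 gave 2 higher and 1 lower past adjustment, beside 2.58% and 2.33%. With the length trend removed there were 1 and 2 past the threshold and 2 and 4 past adjustment, beside 6.9%, 6.56%, 4.43% and 4.23% of all genes. With the trend removed and Vector replicate 2 left out, chosen after seeing the data, 2 members were higher and 1 lower past the threshold. All genes gave 7.14% and 5.51% there. In that fit 3 and 5 members passed adjustment, beside 11.8% and 10.9% of all genes, with FANCI at 0.40 and NBN at -0.31 among them. A fold change threshold of 2 left 1 and 1 members (RAD54L and RAD50), and 463 and 335 of all genes. Leaving out each library gave 0 to 3 members higher and 0 to 4 lower past adjustment: 3 and 4 without Vector replicate 2, 1 and 0 without Vector replicate 1, and 0 and 0 without each of the other libraries. Of all genes 2888 passed without Vector replicate 2, 182 without Vector replicate 1 and 4 to 141 without each of the others. Without each of those others 2 to 3 members were higher and 4 to 5 lower past the threshold, beside 5.52% to 9.44% and 5.07% to 8.25%. For RAD54L the adjusted p was then 0.0573 to 0.127, with the highest without shEZH2 replicate 3. RAD54L and RAD50 passed the threshold under every alternative, and FANCF under 7 of 17. None of the 7 members called with all libraries changed sign under any of them. These members were picked by their size in the same libraries, so a kept sign adds no support. The causes were not tested, and the call of a member near the 1.5-fold limit can change with 1 library.

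A replicate block, with the replicate number as a term, gave 3 members higher and 4 lower past the threshold, beside 8.67% and 7.29% of all genes. It gave 1 and 1 past adjustment, beside 1.47% and 1.31%, and an adjusted p of 0.0357 for RAD50 (limma). The member counts were those found without it. The correlations of same-numbered libraries were 0.28, 0.22 and -0.11, and those of differently numbered libraries ran from -0.31 to 0.25. Whether the numbers pair the samples cannot be told from these values. With 3 libraries a group, standard errors on the log2 scale were 0.14 to 0.30 for members. Some members under the threshold changed by more than their standard error, such as NBN (-0.40 ± 0.15) and CHEK1 (0.46 ± 0.17). Others, such as RAD51D (0.00072 ± 0.14), did not.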
